A study of Mus musculus with 7 samples.

Results

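The TGF-beta and BMP signaling genes examined here were 44 genes chosen by symbol: the secreted ligands, the proteins that keep them latent or process them, their receptors, antagonists, SMAD proteins and corepressors, and 5 target genes. All 44 were found among the 23284 gene symbols of the RNA-seq of mouse skin papillomas, and their levels were compared between 4 CTR and 3 TG papillomas, each from a different mouse. Mice of both groups were littermates on a C57BL/6 background, carried the doxycycline-responsive *Nanog* cassette at the collagen locus (*Col1a1 tetO-Nanog*) and drank doxycycline (DOX, 2 mg/ml). All received the mutagen DMBA on the back skin at 8 to 10 weeks of age, then the tumor promoter TPA for 15 weeks, and were observed for up to 15 weeks more. TG mice also carried *K5-rtTA*, a transactivator driven by the bovine keratin 5 promoter, which directs the cassette to the basal keratinocytes of stratified epithelia, whereas CTR mice lacked it. The question was whether the messages of this pathway differ between papillomas with and without induced NANOG, a transcription factor of embryonic stem cells. PolyA+ RNA was sequenced as single reads of 40 bases, and the measure is FPKM, the fragments of a gene scaled by transcript length and by how many fragments were mapped in all. RNA came from papilloma tissue, so fewer cells of a type and less RNA per cell cannot be told apart. How the papillomas were dissected is not given in the sources used here.

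As background, TGF-beta, activin and BMP ligands are dimeric growth factors that bring together type I and type II receptor kinases at the cell surface. The type I receptor then phosphorylates SMAD2 and SMAD3 (TGF-beta and activin) or SMAD1 and SMAD5 (BMP), which join SMAD4 and enter the nucleus. In the epidermis, TGF-beta is best known for arresting the growth of keratinocytes, and in tumors for its part in invasion, while BMP signals act in hair follicle cycling and differentiation. *Id1* to *Id4*, textbook targets of BMP signaling, encode helix-loop-helix proteins without a DNA-binding region, which hold back partner transcription factors.

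*Nanog* itself lay between 2.70 and 12.7 FPKM in CTR and between 36.9 and 66.9 FPKM in TG papillomas, higher in each TG papilloma as labelled, although transcripts of the cassette and of the endogenous gene are counted together. The files give no depth. Cufflinks, the program that estimated FPKM, gave each value an interval for the counting error of its library, and the width of these intervals implied between 10075778 and 15710864 reads on genes in each library. Keratinocyte markers were abundant in every papilloma, with 10 genes summing to between 9434 and 12593 FPKM in CTR and to 19348, 16628 and 8035 FPKM in TG 1, TG 2 and TG 3. The low sum of TG 3 did not hold for each marker. *Krt14*, *Krt1*, *Krt10* and *Lor* were lowest in TG 3, *Krt5*, *Krt15* and *Dsg3* were highest there, and *Trp63*, *Dsp* and *Ivl* were at neither end. TG 3 stood apart: its correlations with the other libraries were 0.903 to 0.937, against 0.945 to 0.977 among the others (Pearson's r over 12299 genes, which are not independent replicates). The 12 skeletal muscle markers summed to 661 FPKM in TG 3 and to between 2.18 and 5.67 FPKM in the other 6 papillomas, where *Ckm*, *Myh4*, *Actn3*, *Tnnc2* and *Mb* were each at 0 in at least 1 CTR papilloma. The 12 fibroblast markers summed to 754 FPKM in TG 3 and to between 88.1 and 152 FPKM elsewhere. The 10 leukocyte markers summed to 128 FPKM in TG 3 against 35.3 to 44.6 FPKM. Of 8 adipocyte markers, *Fabp4* alone made up most of the sum in every papilloma (1376 to 3229 FPKM in CTR and 1545 to 2269 FPKM in TG), and *Adipoq*, *Plin1*, *Cidec*, *Lep* and *Retn* were at 0 in all CTR papillomas but above 0 in TG 3. The 10 endothelial markers summed to 16.1 to 23.6 FPKM in CTR and to 40.03, 20.7 and 47.1 FPKM in TG 1, TG 2 and TG 3. Most log2 differences below are therefore given with and without TG 3, and the part of these cell types in the results was not tested.

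In outline, none of the 44 genes passed the test over all genes. Those with the smallest p among the 44 were *Tgfbr3*, *Bmp1* and *Inhbb*, with higher means in TG papillomas, and *Id1* and *Id2*, with lower means. Among the further pathway genes described at the end, which did not pass either, *Twsg1*, *Rgma*, *Itgb6*, *Nedd4l* and *Lrrc32* had smaller p-values than these. A gene entered the test if the 7 papillomas averaged 0.5 FPKM or more, as 38 of the 44 genes did. Values were compared as log2(FPKM + 0.5) with limma, a linear model that shares information on variances between genes, with Benjamini-Hochberg adjustment over all 12299 genes tested. On this scale the change of a gene with low FPKM is understated. At an adjusted p under 0.05, 0 of the 38 genes were higher and 0 lower in TG papillomas, as were 0% and 0% of all genes tested, and the adjusted p-values of the 38 lay between 0.702 and 0.999. Even the induced *Nanog*, with a log2 difference of 3.45, had a limma adjusted p of 0.400, and no gene tested had a lower one. Missing this threshold therefore does not show that a gene is unchanged. At an unadjusted p under 0.05, limma gave 3 of the 38 as higher (7.89%, against 4.86% of all genes tested) and 2 as lower (5.26%, against 1.96%). Leaving out a single papilloma gave 1 higher without CTR 1, CTR 2, CTR 3 or TG 3 (without TG 3, *Tgfbi*). It gave 0 lower without CTR 2, CTR 3 or TG 2, 1 lower without TG 1 and 4 lower without TG 3. Over all genes, of 11990 to 12375 tested, the fits with 1 higher gave 364 to 627 higher. Those with 0 lower gave 121 to 271 lower, and those without TG 1 and TG 3 gave 347 and 522. In 2 genes every TG papilloma lay above every CTR papilloma (5.26%, against 4.93% of all genes tested), and in 2 every TG papilloma lay below (5.26%, against 2.23%). An exact permutation test over the 35 ways to split the papillomas, 2-sided, accompanies the single genes, and its smallest possible p is 0.0286.

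TG 3 held most of the highest values of the pathway genes, and about as large a share of them changed direction without it as of all genes. Of the 38 genes, 24 had a positive log2 difference between TG and CTR (63.2%, against 60% of all genes tested), with a median of 0.16 beside 0.061 over all genes. TG 3 held the highest value of 24 of the 38 genes (63.2%, against 41.1%). Without TG 3, 14 had a positive difference (36.8%, against 46.1%), the median was -0.051 beside -0.027 over all genes, and 10 had changed sign (26.3%, against 23.8%). The same is seen papilloma by papilloma. The median over the 38 genes of the log2 difference from the CTR mean was 0.53 in TG 3, where it was 0.24 over all tested genes. In the other papillomas it ran from -0.20 (CTR 2) to 0.22 (CTR 4), with -0.099 in TG 1 and -0.049 in TG 2. TG 1 and TG 2 thus lay within the span of the CTR papillomas, and TG 3 above it.

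**Figure D1:**
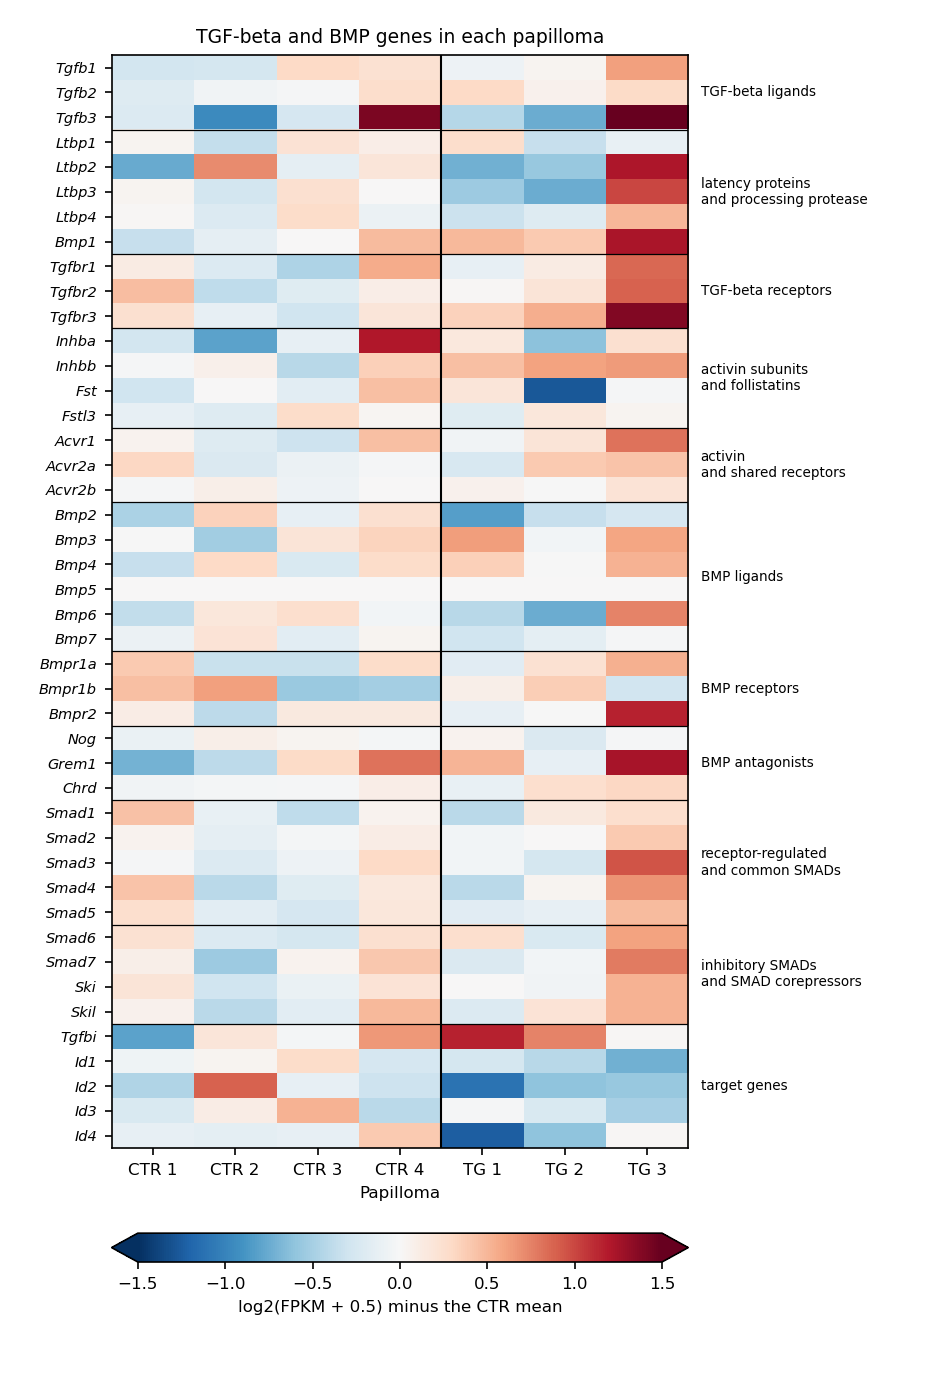
Colors show log2(FPKM + 0.5) minus the mean of the 4 CTR papillomas for each of the 44 genes (rows, grouped by role) in each papilloma (columns, CTR left and TG right of the line). The column of TG 3 is red for most rows, with a median of 0.53 over the 38 tested genes, while *Id1* and *Id2* are blue in all 3 TG papillomas.

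Among the TGF-beta ligands, *Tgfb1* had the highest level (chromosome 7, 25687002 to 25704996, GRCm38 as for all coordinates here). It measured 8.24, 8.34, 12.6 and 11.95 FPKM in CTR 1 to CTR 4 and 9.51, 10.4 and 15.7 FPKM in TG 1 to TG 3. The groups overlapped, with means of 10.3 ± 2.30 FPKM (SD, n = 4) and 11.8 ± 3.34 FPKM (SD, n = 3). The log2 difference of 0.19 ± 0.23 (SE, standard error) came with a limma adjusted p of 0.930, and it was -0.022 without TG 3. *Tgfb2* was low throughout, at 0.622 to 1.05 FPKM in CTR and 0.844 to 1.09 FPKM in TG papillomas. *Tgfb3* was uneven: CTR 4 with 7.21 FPKM and TG 3 with 8.84 FPKM stood above the other papillomas, which lay between 0.988 and 2.00 FPKM. 1 papilloma of each group was thus high for this ligand, and its log2 difference was 0.17 with TG 3 and -0.59 without it.

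Latent TGF-beta binding proteins (*Ltbp1* to *Ltbp4*) tether the inactive ligand in the matrix, and the protease encoded by *Bmp1* cuts such proteins as well as procollagens and the BMP inhibitor chordin. *Bmp1* (chromosome 14, 70474555 to 70520260) had the smallest limma p of those of the 44 genes with a higher mean in TG papillomas. It measured 8.59, 10.1, 11.1 and 15.6 FPKM in CTR 1 to CTR 4. In TG 1, TG 2 and TG 3 it was 15.7, 14.7 and 26.6 FPKM. TG 2 was below CTR 4, so the groups touched, and TG 3 was well above all others. The means were 11.3 ± 3.02 FPKM (SD, n = 4) in CTR and 19.0 ± 6.59 FPKM (SD, n = 3) in TG papillomas. TG exceeded CTR by 0.70 ± 0.26 on the log2 scale (SE, limma p = 0.0262, limma adjusted p = 0.702, exact permutation p = 0.0857). Without TG 3 it was 0.44.

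The binding proteins went with TG 3 in another way. *Ltbp3* measured 3.44 and 2.93 FPKM in TG 1 and TG 2, below all CTR papillomas (4.23 to 6.26 FPKM), but 10.9 FPKM in TG 3, above all of them. Its log2 difference was -0.095 with TG 3 and -0.64 without it. *Ltbp2* was likewise highest in TG 3, at 2.68 FPKM, and spread from 0.311 to 1.75 FPKM among CTR papillomas. Its log2 difference was -0.028 with TG 3 and -0.65 without it. *Ltbp1* (8.18 ± 1.39 FPKM in CTR, 7.84 ± 1.81 in TG) and *Ltbp4* (9.47 ± 1.45 FPKM in CTR, 9.69 ± 3.30 in TG, SD, n = 4 and n = 3) had means closer together than their spread, with log2 differences of -0.065 and -0.0045 with TG 3 and of -0.039 and -0.26 without it.

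Of the TGF-beta receptors, the co-receptor *Tgfbr3*, or betaglycan, which presents ligand to the type II receptor, separated the groups (chromosome 5, 107106570 to 107289595). Its level was low, at 1.085, 0.726, 0.588 and 1.01 FPKM in CTR 1 to CTR 4, against 1.20, 1.44 and 2.99 FPKM in TG 1 to TG 3. All TG papillomas were above all CTR papillomas, narrowly for TG 1 and by most for TG 3. This gave a log2 difference of 0.76 ± 0.29 (SE, limma p = 0.0302, limma adjusted p = 0.702, exact permutation p = 0.0286, the smallest possible), and 0.45 without TG 3 (limma p = 0.0868). The Cufflinks interval of TG 1, from 1.02 to 1.39 FPKM, overlapped that of CTR 1, from 0.872 to 1.297 FPKM, on 79 to 263 implied reads per papilloma. The signaling receptors did not separate the groups. *Tgfbr2*, the type II receptor and the most abundant of the family (chromosome 9, 116087695 to 116175363), measured 19.1, 10.4, 12.1 and 14.7 FPKM in CTR 1 to CTR 4 and 13.8, 15.7 and 25.7 FPKM in TG 1 to TG 3. TG 1 and TG 2 lay among the CTR papillomas, and the log2 difference was 0.36 ± 0.27 (SE, limma adjusted p = 0.850) with TG 3 and 0.10 without it. *Tgfbr1*, the type I receptor, had means of 4.95 ± 1.71 FPKM (SD, n = 4) in CTR and 6.19 ± 2.50 FPKM (SD, n = 3) in TG papillomas, a log2 difference of 0.29 with TG 3 and of 0.00041 without it.

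Activins are dimers of the subunits encoded by *Inhba* and *Inhbb*, and follistatin (*Fst*) binds and inactivates them. *Inhbb* (chromosome 1, 119415465 to 119422248) separated the groups by much the same difference with and without TG 3. It measured 1.79, 1.95, 1.24 and 2.48 FPKM in CTR 1 to CTR 4 and 2.67, 3.03 and 3.12 FPKM in TG 1 to TG 3. The TG papillomas lay close together and all above CTR 4, the highest CTR papilloma. The means were 1.86 ± 0.507 FPKM (SD, n = 4) and 2.94 ± 0.236 FPKM (SD, n = 3). They differed by 0.57 ± 0.22 on the log2 scale (SE, limma p = 0.0290, limma adjusted p = 0.702, exact permutation p = 0.0571) and 0.53 without TG 3 (limma p = 0.0574). The Cufflinks intervals of TG 1 (2.35 to 3.00 FPKM) and CTR 4 (2.08 to 2.87 FPKM) overlapped.

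*Inhba*, the other subunit, overlapped fully: 0.828, 0.415, 0.976 and 3.17 FPKM in CTR 1 to CTR 4 and 1.29, 0.542 and 1.39 FPKM in TG 1 to TG 3. The log2 difference of *Inhba* was -0.075 with TG 3 and -0.23 without it. *Fst* (chromosome 13, 114452262 to 114458730) was among the most abundant messages of the pathway, at 62.7, 78.0, 69.5 and 106 FPKM in CTR 1 to CTR 4 and 87.7, 31.8 and 76.8 FPKM in TG 1 to TG 3. TG 2 was the low papilloma and the other 6 overlapped. The log2 difference of -0.37 ± 0.35 (SE, limma adjusted p = 0.891) was 0.082 when TG 2 was left out and -0.55 when TG 3 was. *Fst* exceeded *Inhba* by 33.5 to 188 times in CTR and by 55.2 to 68.2 times in TG papillomas, on FPKM. *Fstl3*, a relative of follistatin, stayed at 0.278 to 0.576 FPKM and was not tested. The receptors showed no separation. *Acvr1*, a type I receptor shared with BMPs (chromosome 2, 58446438 to 58566828), measured 5.64, 4.70, 4.30 and 7.59 FPKM in CTR 1 to CTR 4 and 5.21, 6.30 and 9.92 FPKM in TG 1 to TG 3 (log2 difference 0.32 ± 0.26 SE, limma adjusted p = 0.861, and 0.072 without TG 3). The type II receptor *Acvr2a* had means of 3.12 ± 0.595 FPKM (SD, n = 4) in CTR and 3.69 ± 0.997 FPKM (SD, n = 3) in TG papillomas (log2 difference 0.19 with TG 3 and 0.078 without it), while *Acvr2b* lay below the limit for testing, at 0.109 to 0.238 FPKM.

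*Bmp7* (chromosome 2, 172869687 to 172940293) was the main BMP ligand of these papillomas. It measured 8.77, 10.9, 8.39 and 9.65 FPKM in CTR 1 to CTR 4 and 7.56, 8.43 and 9.25 FPKM in TG 1 to TG 3, an overlap with a log2 difference of -0.15 ± 0.16 (SE, limma adjusted p = 0.912) and of -0.22 without TG 3. It kept this sign in all 19 alternatives, between -0.23 and -0.084. *Bmp2* had means of 1.74 ± 0.553 FPKM (SD, n = 4) in CTR and 1.096 ± 0.322 FPKM (SD, n = 3) in TG papillomas, with a log2 difference of -0.48 ± 0.27 (SE, limma adjusted p = 0.825) and of -0.59 without TG 3. *Bmp6* repeated the pattern of *Ltbp3*: TG 1 (0.922 FPKM) and TG 2 (0.633 FPKM) lay below all CTR papillomas (0.967 to 1.76 FPKM) and TG 3 (2.69 FPKM) above them, with log2 differences of -0.14 with TG 3 and -0.58 without it. *Bmp3* spread from 0.112 to 0.606 FPKM in CTR and from 0.350 to 0.854 FPKM in TG papillomas. *Bmp4* was below the limit for testing, at 0.203 to 0.777 FPKM, and *Bmp5* was listed at 0 in all 7 papillomas.

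The type I BMP receptor *Bmpr1a* (chromosome 14, 34411068 to 34502546) measured 14.1, 8.31, 8.32 and 12.9 FPKM in CTR 1 to CTR 4 and 9.34, 12.5 and 15.6 FPKM in TG 1 to TG 3. The groups overlapped (log2 difference 0.19 ± 0.25 SE, limma adjusted p = 0.935, and 0.024 without TG 3). The type II receptor *Bmpr2* reached 4.45 FPKM in TG 3 and lay between 1.19 and 1.94 FPKM in the other 6 papillomas, a log2 difference of 0.34 with TG 3 and of -0.063 without it. *Bmpr1b* varied more within CTR, from 0.149 to 0.961 FPKM, than within TG papillomas, from 0.281 to 0.735 FPKM. The 3 BMP antagonists among the 44 genes were scarce. *Grem1*, or gremlin (chromosome 2, 113748675 to 113758648), the only one tested, was listed at 0 in CTR 1 and measured 0.121, 0.492 and 0.934 FPKM in CTR 2 to CTR 4 and 0.658, 0.252 and 1.42 FPKM in TG 1 to TG 3, on at most 34 implied reads. Its groups overlapped (log2 difference 0.54 ± 0.45 SE, limma adjusted p = 0.866, and 0.19 without TG 3). *Nog* (noggin) and *Chrd* (chordin) stayed between 0.0365 and 0.218 FPKM.

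No SMAD gene separated the groups. *Smad4*, the partner shared by both branches (chromosome 18), measured 12.8, 7.01, 8.19 and 10.6 FPKM in CTR 1 to CTR 4 and 6.995, 9.66 and 15.3 FPKM in TG 1 to TG 3. CTR 1 and TG 3 were high, and the log2 difference was 0.10 ± 0.29 (SE, limma adjusted p = 0.979) with TG 3 and -0.18 without it. *Smad1* (9.98 ± 2.53 FPKM in CTR, 9.95 ± 2.39 in TG) and *Smad5* (6.11 ± 1.12 in CTR, 6.46 ± 1.83 in TG), which carry BMP signals, had almost equal means (SD, n = 4 and n = 3) and log2 differences of -0.0019 and 0.061, or -0.13 and -0.15 without TG 3. For *Smad2* (3.92 ± 0.325 FPKM in CTR, 4.33 ± 0.830 in TG) and *Smad3* (3.09 ± 0.550 in CTR, 3.91 ± 2.09 in TG), which carry TGF-beta and activin signals, the excess in TG lay in TG 3, and the log2 differences were 0.12 and 0.21 with it and -0.019 and -0.15 without it. The inhibitory *Smad6* (0.635 ± 0.208 FPKM in CTR, 0.834 ± 0.375 in TG) and *Smad7* (2.65 ± 0.802 in CTR, 3.13 ± 1.42 in TG) had log2 differences of 0.21 and 0.17 with TG 3 and of 0.013 and -0.13 without it. *Ski*, a corepressor that binds SMAD proteins (chromosome 4, 155154075 to 155222535), measured 15.8, 11.1, 12.9 and 15.9 FPKM in CTR 1 to CTR 4 and 13.8, 13.2 and 19.9 FPKM in TG 1 to TG 3. Again TG 3 was the highest and the rest overlapped (log2 difference 0.16 ± 0.21 SE, limma adjusted p = 0.936, and -0.025 without TG 3). Its relative *Skil* lay between 3.52 and 6.94 FPKM in CTR and between 4.11 and 7.09 FPKM in TG papillomas.

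**Figure D2:**
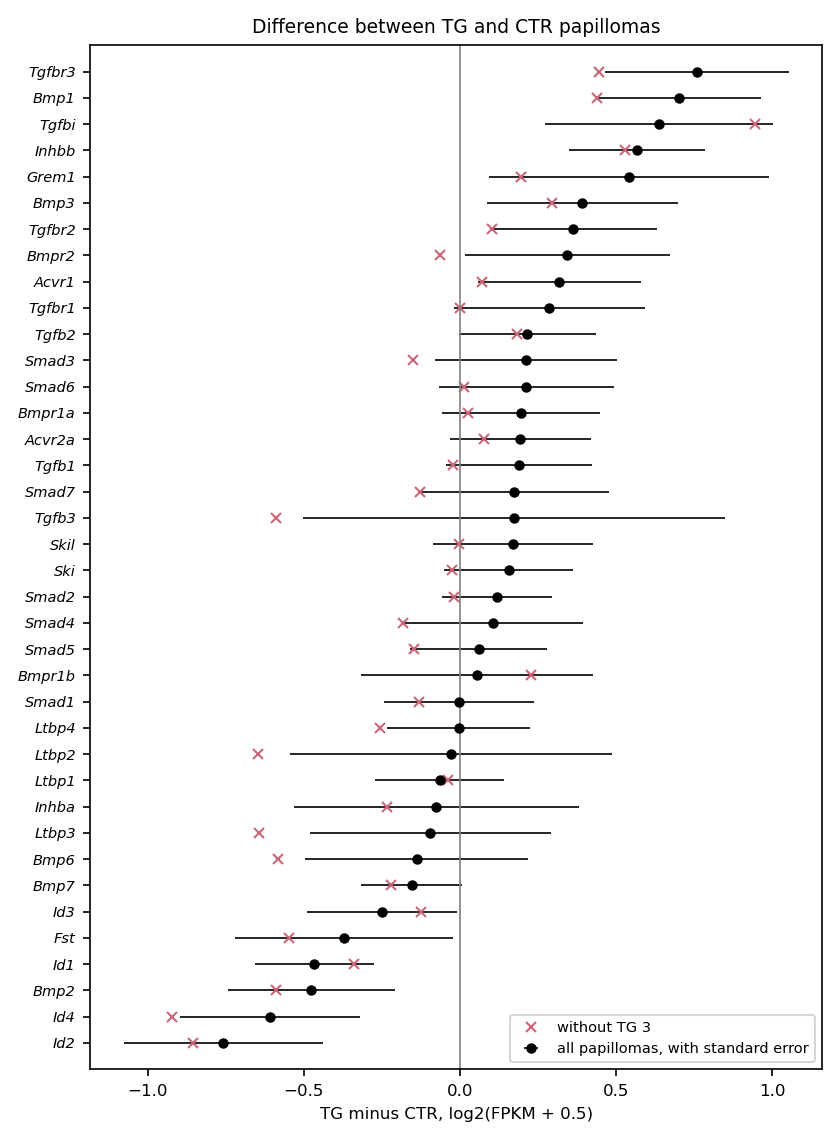
The log2 difference between TG and CTR papillomas, on log2(FPKM + 0.5), is shown for the 38 tested genes in order of size, with dots and bars for all 7 papillomas (bars, standard error) and crosses for the same difference without TG 3. Crosses lie left of the dots for most genes, *Id4* (-0.61 with TG 3 and -0.92 without it) among them, and right of the dots for *Tgfbi*, *Id1*, *Id3*, *Bmpr1b* and *Ltbp1*.

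Of the target genes, the 4 *Id* genes had lower means in TG papillomas and *Tgfbi* had a higher one. *Id1* (chromosome 2, 152736274 to 152737410) had the highest mean FPKM of all 44 genes, although *Fst* was above it in CTR 4, TG 1 and TG 3. It measured 94.2, 101, 120 and 82.8 FPKM in CTR 1 to CTR 4 and 82.2, 73.7 and 59.6 FPKM in TG 1 to TG 3. Every TG papilloma was below every CTR papilloma, but the Cufflinks intervals of TG 1 (78.0 to 86.3 FPKM) and CTR 4 (77.9 to 87.8 FPKM) overlapped. The means were 99.5 ± 15.4 FPKM (SD, n = 4) and 71.8 ± 11.4 FPKM (SD, n = 3). The log2 difference was -0.47 ± 0.19 (SE, limma p = 0.0367, limma adjusted p = 0.713, exact permutation p = 0.0571) with TG 3, its lowest papilloma, and -0.34 without it (limma p = 0.131).

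*Id2* (chromosome 12, 25093799 to 25096092) also kept the groups apart. It measured 9.91, 25.7, 12.6 and 11.0 FPKM in CTR 1 to CTR 4 and 6.13, 8.90 and 9.12 FPKM in TG 1 to TG 3. CTR 2 stood far above the other CTR papillomas, TG 2 and TG 3 lay just under CTR 1, and TG 1 lay further below. The Cufflinks intervals of TG 3 (7.70 to 10.5 FPKM) and CTR 1 (8.43 to 11.4 FPKM) overlapped. On the log2 scale the difference was -0.76 ± 0.32 (SE, limma p = 0.0417, limma adjusted p = 0.719, exact permutation p = 0.0571). It was -0.85 without TG 3 and -0.47 without CTR 2.

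*Id4* and *Id3* overlapped between the groups. *Id4* measured 14.6, 14.4, 14.7 and 21.0 FPKM in CTR 1 to CTR 4 and 6.48, 10.3 and 16.2 FPKM in TG 1 to TG 3. TG 1 and TG 2 were below all CTR papillomas, and TG 3 was inside their range. With all papillomas the log2 difference was -0.61 ± 0.29 (SE, limma p = 0.0649, limma adjusted p = 0.773, exact permutation p = 0.200), and without TG 3 it was -0.92 (limma p = 0.00484, limma adjusted p = 0.213). *Id3* measured 16.6, 21.2, 28.3 and 14.7 FPKM in CTR 1 to CTR 4 and 19.3, 16.6 and 13.7 FPKM in TG 1 to TG 3, with a log2 difference of -0.25 ± 0.24 (SE, limma adjusted p = 0.895) and of -0.12 without TG 3. Added up, the 4 *Id* genes came to 135, 162, 175 and 130 FPKM in CTR 1 to CTR 4 and to 114, 110 and 98.7 FPKM in TG 1 to TG 3. The sum was thus lower in each TG papilloma, and *Id1* made up 60.4% to 72.0% of it in every papilloma. *Id1* was below the CTR range in TG 3 and *Id4* was not, so the members of the family did not order the TG papillomas alike.

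**Figure D3:**
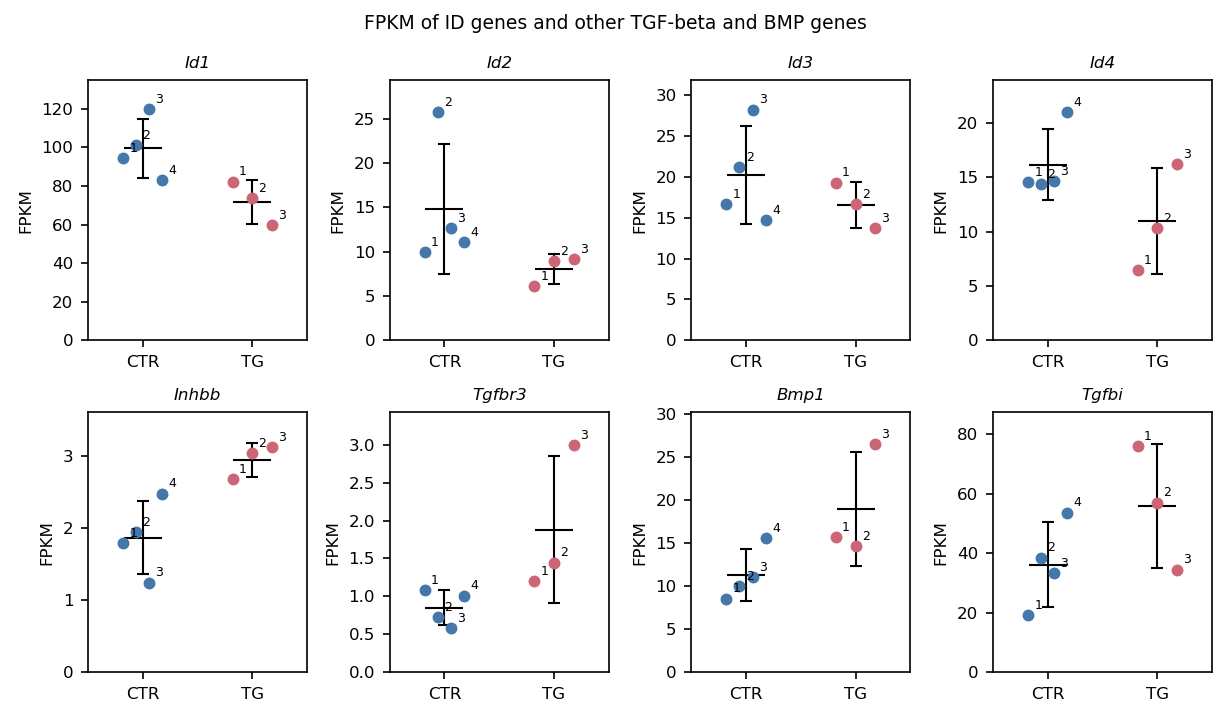
FPKM of the 4 *Id* genes, *Inhbb*, *Tgfbr3*, *Bmp1* and *Tgfbi* is plotted for every papilloma (points, numbered by replicate; horizontal lines, group means; bars, SD). *Id1* and *Id2* lie lower in all 3 TG papillomas and *Inhbb* and *Tgfbr3* higher, with TG 1 next to the nearest CTR papilloma in *Id1*, *Inhbb* and *Tgfbr3*.

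The *Id* promoters are shown because *Id1* and *Id2* had the only lower calls at an unadjusted p under 0.05 among the 44 genes and the 4 *Id* genes had lower means together. The 250 bases before the RefSeq start (GRCm38.p6) are given 5′ to 3′ on the strand of the gene, and capitals mark GGCGCC, a sequence bound by SMAD1 and SMAD5, and CAGAC or its complement GTCTG, bound by SMAD3 and SMAD4.
Id2, chr12:25096093-25096342, minus strand: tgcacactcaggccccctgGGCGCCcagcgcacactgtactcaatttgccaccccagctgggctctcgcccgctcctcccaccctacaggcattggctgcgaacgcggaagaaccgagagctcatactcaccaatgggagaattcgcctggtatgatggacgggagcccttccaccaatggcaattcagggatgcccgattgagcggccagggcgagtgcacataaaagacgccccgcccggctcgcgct
Id3, chr4:136143572-136143821, plus strand: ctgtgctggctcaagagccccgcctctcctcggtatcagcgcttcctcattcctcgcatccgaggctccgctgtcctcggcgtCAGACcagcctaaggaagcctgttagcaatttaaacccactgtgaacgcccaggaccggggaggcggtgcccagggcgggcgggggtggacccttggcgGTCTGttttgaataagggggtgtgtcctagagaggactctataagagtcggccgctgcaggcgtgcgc
Id4, chr13:48260866-48261115, plus strand: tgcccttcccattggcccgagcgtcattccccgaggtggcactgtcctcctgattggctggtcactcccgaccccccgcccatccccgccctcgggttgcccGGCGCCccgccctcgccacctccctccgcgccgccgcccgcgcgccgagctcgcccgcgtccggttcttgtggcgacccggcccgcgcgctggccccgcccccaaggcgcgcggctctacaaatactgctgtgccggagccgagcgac
Both motifs were searched on both strands, in windows of 300 bases that end 50 bases past the start. *Id2* held 1 GGCGCC, 231 bases before the start, and *Id4* held 1, 148 bases before it, whereas *Id3* held none and had CAGAC at 167 and GTCTG at 68 bases before the start. GGCGCC occurred in 11.9% and CAGAC in 49.6% of all 32851 promoter windows. The RefSeq start of *Id4* lies 311 bases upstream of the start in the authors' annotation. Of the 44 genes, 31 had a promoter entry, and *Id1* had none. No match overlapped another. A match is a string of letters and not a measured binding site.

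*Tgfbi*, which encodes a matrix protein that TGF-beta induces, measured 19.2, 38.6, 33.3 and 53.7 FPKM in CTR 1 to CTR 4 and 76.0, 57.0 and 34.5 FPKM in TG 1 to TG 3. TG 1 and TG 2 were above all CTR papillomas, but TG 3 was inside the CTR range. For *Tgfbi* the log2 difference was 0.64 ± 0.37 (SE, limma p = 0.116, limma adjusted p = 0.826, exact permutation p = 0.200), and without TG 3 it was 0.95 (limma p = 0.0293, limma adjusted p = 0.434). This was the reverse of *Bmp1* and *Tgfbr3*, whose differences shrank without TG 3.

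Leaving out a papilloma can only keep or add genes that separate the groups. With TG 3 the shares over all genes tested were 4.93% above and 2.23% below. A comparison of TG 1 and TG 2 with the 4 CTR papillomas, added after the values were seen, put both above every CTR papilloma for *Tgfbr3*, *Inhbb* and *Tgfbi* (3 of 38, 7.89%, against 8.94% of all genes tested). Both lay below for *Ltbp3*, *Bmp6*, *Id1*, *Id2* and *Id4* (5 of 38, 13.2%, against 8.97%). *Tgfbr3*, *Inhbb*, *Id1* and *Id2* are among them by construction, since all 3 TG papillomas already lay beyond the CTR range.

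Beyond the 44 genes, 90 further genes of the pathway were examined, of which 56 could be tested. A positive difference was found in 42 of the 56 (60% over all genes tested), with a median of 0.27 on the log2 scale, and TG 3 held the highest value of 36 of them (41.1% over all genes tested). Without TG 3, 35 of the 56 had a positive difference (46.1% over all genes tested), and the median was 0.072. At an adjusted p under 0.05, limma gave 0 as higher and 0 as lower, and at an unadjusted p under 0.05 it gave 7 as higher and 2 as lower (4.86% and 1.96% over all genes tested). Leaving out TG 3 made these 3 higher and 3 lower among the 54 that could then be tested, and leaving out CTR 3 made them 1 higher and 2 lower. Over all genes these fits gave 627 higher and 522 lower of 11990, and 364 higher and 134 lower of 12352. The smallest p belonged to *Twsg1* (twisted gastrulation, a secreted BMP modulator, chromosome 17). It measured 14.5, 11.4, 10.4 and 14.8 FPKM in CTR 1 to CTR 4 and 18.2, 20.1 and 26.1 FPKM in TG 1 to TG 3. TG 1, the lowest TG papilloma, lay above CTR 4, the highest CTR papilloma. The log2 difference was 0.72 ± 0.20 (SE, limma p = 0.00514, limma adjusted p = 0.587, exact permutation p = 0.0286, the smallest possible). It was 0.58 without TG 3, and its unadjusted p stayed under 0.05 in all 19 alternatives.

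Activators of latent TGF-beta had positive differences in 8 of 8 tested genes (60% over all genes tested), with a median of 0.73 on the log2 scale. Without TG 3 these were 6 of 8 (46.1% over all genes tested) and 0.40. *Itgb6*, a subunit of the epithelial integrin that frees TGF-beta from its latent complex (chromosome 2), measured 0.907, 1.02, 0.950 and 1.84 FPKM in CTR 1 to CTR 4 and 1.60, 2.38 and 2.98 FPKM in TG 1 to TG 3. CTR 4 lay above TG 1, so the groups overlapped (log2 difference 0.75 ± 0.27 SE, limma p = 0.0208, limma adjusted p = 0.687, exact permutation p = 0.0857, and 0.58 without TG 3). *Lrrc32*, which encodes the latent TGF-beta anchor GARP (chromosome 7), did not overlap, at 0.289 to 1.03 FPKM in CTR against 1.20, 1.18 and 2.22 FPKM in TG 1 to TG 3, on 27 to 123 implied reads (log2 difference 0.83 ± 0.30 SE, limma adjusted p = 0.687, and 0.60 without TG 3). Among the intracellular regulators, *Nedd4l*, a ubiquitin ligase that acts on SMAD proteins (chromosome 18), was low and did not overlap, at 0.277 to 0.559 FPKM in CTR against 1.14, 0.724 and 1.38 FPKM in TG 1 to TG 3, on 50 to 211 implied reads (log2 difference 0.70 ± 0.25 SE, limma adjusted p = 0.687, and 0.56 without TG 3). The response genes of TGF-beta had positive differences in 13 of 15 genes (60% over all genes tested), with a median of 0.53. Without TG 3 these were 10 of 15 (46.1% over all genes tested) and 0.12. This list includes the fibroblast markers *Col1a1* and *Col1a2*, and the cassette of both groups lies next to *Col1a1*. *Acta2*, the actin of smooth muscle and myofibroblasts (chromosome 19), measured 5.46 to 11.9 FPKM in CTR and 16.9, 7.65 and 35.9 FPKM in TG 1 to TG 3 (log2 difference 1.18 ± 0.47 SE, limma p = 0.0329, limma adjusted p = 0.705, exact permutation p = 0.114). It was 0.65 without TG 3 and 0.24 with a quality weight for each papilloma, and its unadjusted p was under 0.05 in 11 of 19 alternatives. The other two genes with an unadjusted p under 0.05 and a higher mean, named here after their values were seen, were *Acvrl1*, a type I receptor of endothelium (0.867 ± 0.251 FPKM, SD, n = 4, in CTR and 1.75 ± 0.851 FPKM, SD, n = 3, in TG), and *Cdkn2b*, a cell cycle inhibitor (7.89 ± 2.26 and 12.8 ± 4.25 FPKM). Their log2 differences were 0.67 and 0.66 with TG 3 and 0.38 and 0.42 without it. Of 9 tested endothelial markers, 9 had a positive difference (60% over all genes tested), also without TG 3 (46.1% over all genes tested). An unadjusted limma p under 0.05 with a higher mean came in 4 of the 9 (4.86% over all genes tested). Their part in the values of *Acvrl1* was not tested.

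*Rgma*, a BMP co-receptor (chromosome 7), had the largest lower difference of the named pathway genes. It measured 9.80, 5.39, 10.8 and 9.90 FPKM in CTR 1 to CTR 4 and 3.55, 3.76 and 5.99 FPKM in TG 1 to TG 3. CTR 2 and TG 3 crossed, and the other papillomas did not. The log2 difference was -0.93 ± 0.27 (SE, limma p = 0.00797, limma adjusted p = 0.607, exact permutation p = 0.0857), and -1.15 without TG 3. *Rgma* had a lower mean in TG papillomas in all 19 alternatives, and with a quality weight for each papilloma its adjusted p was 0.0409 (limma, log2 difference -1.20). *Amhr2*, the type II receptor for anti-Mullerian hormone (chromosome 15), lay between 0.999 and 2.17 FPKM in CTR and at 0.964, 0.820 and 0.732 FPKM in TG 1 to TG 3, without overlap (log2 difference -0.62 ± 0.24 SE, limma adjusted p = 0.702, and -0.56 without TG 3). It rests on 18 to 64 implied reads, and its nearest papillomas, TG 1 and CTR 4, on 40 and 24. Next by p was *Dlx3*, a BMP-responsive homeobox gene of the epidermis (chromosome 11). It was even among TG papillomas, at 8.65, 8.18 and 8.34 FPKM in TG 1 to TG 3, just below the CTR papillomas, of which CTR 2 had the lowest value, 8.68 FPKM, and CTR 3 the highest, 13.0 FPKM (log2 difference -0.39 ± 0.18 SE, limma adjusted p = 0.760, and -0.39 without TG 3, on 326 to 941 implied reads). The response genes of BMP, its list, had positive differences in 2 of 4 tested genes (60% over all genes tested), with a median of -0.11. Without TG 3 these were 2 of 4 (46.1% over all genes tested) and -0.12. Named here after their values were seen, *Gata3* (0.84) and *Msx2* (0.041) were positive and *Runx2* (-0.27) negative. *Sostdc1*, a BMP antagonist (chromosome 12), had means of 17.3 ± 7.36 FPKM (SD, n = 4) in CTR and 10.9 ± 1.42 FPKM (SD, n = 3) in TG papillomas, and its log2 difference was -0.56 with TG 3 and -0.55 without it. CTR 2 was its highest papilloma, at 27.2 FPKM, and the difference was -0.32 without CTR 2 and -0.25 with quality weights. The decoy receptor *Bambi* (chromosome 18) was low in TG 1 and TG 2, at 1.88 and 1.44 FPKM, below CTR papillomas at 2.65 to 7.16 FPKM, while TG 3 with 5.81 FPKM was among them. Its log2 difference was -0.65 ± 0.46 (SE, limma adjusted p = 0.842), and -1.17 without TG 3.

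**Figure D4:**
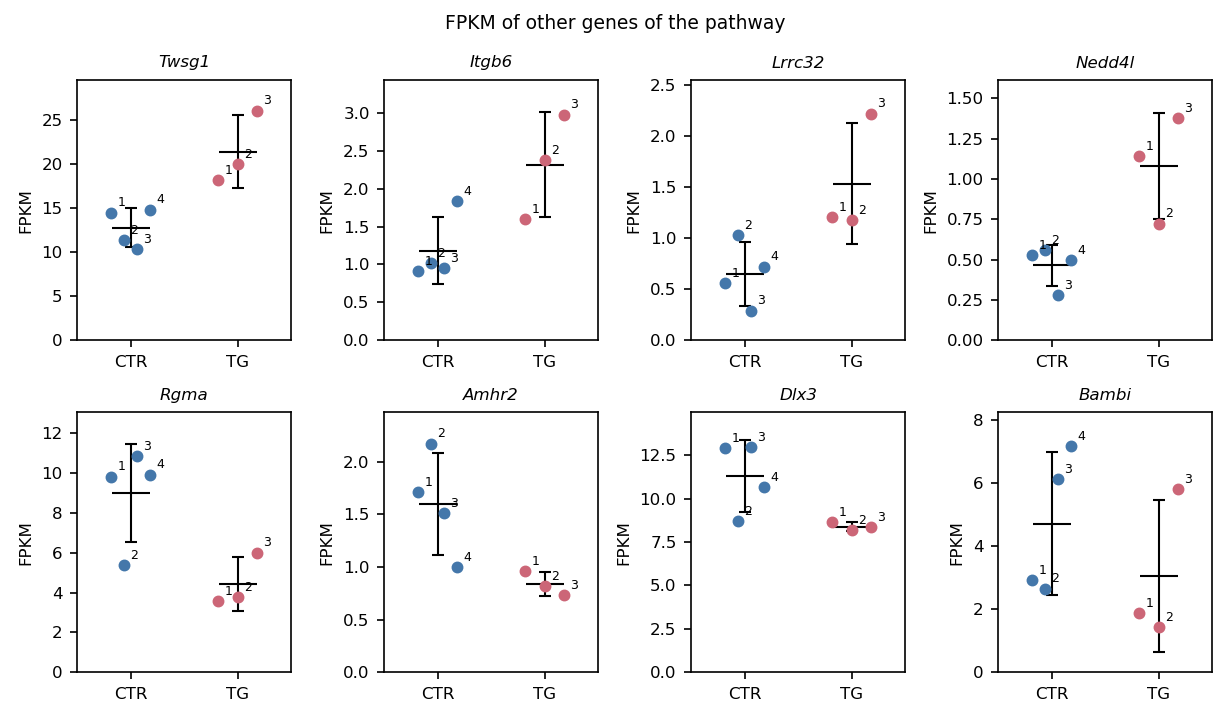
FPKM of 8 further genes of the pathway is plotted for every papilloma (points, numbered by replicate; horizontal lines, group means; bars, SD). *Twsg1*, *Lrrc32* and *Nedd4l* lie higher in all 3 TG papillomas and *Amhr2* and *Dlx3* lower, while TG 3 departs from TG 1 and TG 2 in *Bambi*, at 5.81 FPKM.

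The genes whose levels followed *Bmp1* and *Id1* most closely were found by Pearson's r of log2(FPKM + 0.5) over the 7 papillomas, among all 12299 genes tested. For *Bmp1* they were *Adam8* (r = 0.992), *Ntng2* (r = 0.992) and *Ext2* (r = 0.991). *Adam8*, which encodes a cell surface protease, had means of 7.98 ± 3.66 FPKM (SD, n = 4) in CTR and 18.7 ± 12.5 FPKM (SD, n = 3) in TG papillomas. For *Id1* they were *Thg1l* (r = 0.980), *Rbm17* (r = 0.979) and *Cenpv* (r = 0.971). *Rbm17*, which encodes a splicing factor, had means of 27.1 ± 1.23 FPKM (SD, n = 4) in CTR and 23.1 ± 1.62 FPKM (SD, n = 3) in TG papillomas. These are the highest of many correlations over 7 points that share their libraries and include TG 3, so they describe these papillomas only.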

How the data were processed

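Papillomas of 4 CTR and 3 TG mice were grouped by the sample labels. Per the labels and methods, reads were mapped to GRCm38/mm10 by TopHat 2.0.4 over Bowtie 0.12.7, SAMtools 0.1.16 was used, 2 mismatches and 5 multihits were allowed, and Cufflinks 1.3.0 was run on each library. The authors deposited FPKM for each gene with an interval, which covers the counting error of 1 library, and a status. No scaling was added here.

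Entries sharing a symbol were summed (240 symbols), and 162 symbols with a failed estimate were left out. The deposited FPKM were converted to log2(FPKM + 0.5), and 12299 genes averaging 0.5 FPKM or more were fitted with limma 3.58.1 (R 4.3.3, trended variances, 2-sided, Benjamini-Hochberg, threshold 0.05), after a test on simulated data. There, 48% of genes changed by 1 on the log2 scale and 86% of those changed by 2 were called. Python 3.11.15 with scipy 1.17.1 did the rest. Locus starts count from 0 in the files and were raised by 1.

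The 44 genes, the further pathway genes and the markers were chosen with earlier results of these data known. Given in full were genes whose groups did not overlap, those with an unadjusted p under 0.05 and the highest of each role. *Inhba*, *Id3*, *Id4* and *Tgfbi* were added after their values were seen. Of the further genes, at most 5 by smallest p in each direction were named, and *Acvrl1*, *Cdkn2b*, *Gata3*, *Msx2* and *Runx2* after their values were seen. 19 alternatives were run: another pseudocount (0.1 or 1), another filter (none or 2 FPKM), upper-quartile and quantile scaling, quality weights, no trend, the highest entry of a symbol, values of every status, a replicate block, the papillomas of lower depth only, and each papilloma left out.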

Additional observations from a re-analysis of the deposited data

Results flagged for a closer look

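In the 4 CTR papillomas, 43 of the 44 genes had a value above 0 and were searched for a single papilloma far from the others (Dixon's ratio of the gap to the whole range, set against Dixon's critical value). Chance flags about 1 in 20 such groups, and 3 of the 43 were flagged. *Tgfb3* measured 7.21 FPKM in CTR 4, while the nearest CTR papilloma had 2.00 FPKM. *Id4* measured 21.0 FPKM in CTR 4, with the nearest at 14.7 FPKM. *Bmpr2* measured 1.19 FPKM in CTR 2, with the nearest at 1.89 FPKM. The 3 TG papillomas are too few for this search.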

How the results depend on the processing

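Each result was recomputed under the 19 alternatives. *Inhbb*, *Bmp1*, *Tgfbr3*, *Id1*, *Id2*, *Id3* and *Id4* kept their direction in every one that could be fitted. Unadjusted p-values under 0.05 came in 14 of 19 for *Bmp1*, 14 of 18 for *Tgfbr3*, 13 of 19 for *Inhbb*, 11 of 19 for *Id1*, 12 of 19 for *Id2* and 4 of 19 for *Id4*. Reversed differences (log2) were -0.047 for *Tgfb1*, -0.19 for *Grem1*, -0.035 for *Smad4* and -0.071 for *Ski* with quality weights. Leaving out 1 papilloma in turn gave -0.022 (without TG 3) to 0.32 for *Tgfb1*, -0.18 (without TG 3) to 0.36 for *Smad4*, also below 0 without CTR 2 (-0.028), -0.025 (without TG 3) to 0.26 for *Ski*, and -0.64 to 0.082 (without TG 2) for *Fst*. Of the 22 other tested genes of the 44, 17 changed sign at least once. The matching share over all genes is not given here, but leaving out TG 3 alone changed the sign of 23.8% of them. The count is therefore not a trait of this pathway.

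Over all genes, quality weights (0.272 for TG 3 and 3.11 for TG 2) let 49 genes pass the adjusted threshold as higher and 36 as lower, the papillomas of lower depth gave 1 higher (*Nanog*, log2 difference 4.18), and leaving out a papilloma gave 0 to 9 higher and 0 to 8 lower, most without TG 3. Of the 44 genes at an unadjusted p under 0.05, the lower-depth papillomas gave 1 higher and 0 lower, and leaving out a papilloma gave 1 to 4 higher and 0 to 4 lower, with the highest counts without CTR 4 and without TG 3. Over all genes, 456 of 12424 were higher and 175 lower at lower depth. Without CTR 4, 561 of 12320 were higher, and without TG 3, 522 of 11990 were lower. The count of lower genes among the 44 was also 1 with no filter, 4 with quantile normalization and 5 with quality weights. Over all genes these settings gave 358 of 23122, 551 of 12299 and 1248 of 12299 as lower. With TG 3 left out, 5 genes had every TG below every CTR papilloma (13.2%, against 8.97% of all genes tested), a comparison added after seeing the data. The causes were not tested.

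CTR 3 and TG 1 are the deeper libraries, 1 in each group, too few for a comparison of their own. Quantile normalization turned the unadjusted counts over all genes from 598 higher and 241 lower to 403 higher and 551 lower.

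The labels number both groups, but same-numbered papillomas did not deviate together (correlations -0.186, 0.043 and -0.146, mean -0.0964), so the numbers are not taken as pairs. With the number as a replicate block, 1 of the 44 genes was lower and 2 were higher at an unadjusted p under 0.05, and 0 genes passed the adjusted threshold (505 higher and 170 lower unadjusted).

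A p that misses the threshold does not show equal levels. *Tgfb2*, *Ltbp2*, *Inhba*, *Bmp2*, *Bmp3*, *Bmp6*, *Bmpr1b*, *Grem1* and *Smad6* rest on fewer than 50 implied reads in at least 1 papilloma. So do *Amhr2*, *Lrrc32*, *Acvrl1* and *Msx2* among the further genes named.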
